A study of Homo sapiens with 30 samples.

Results

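MSX1, MSX2 and DLX1 to DLX6 are 8 homeobox genes, followed here in breast cancer cells exposed to bone morphogenetic protein 4 (BMP4). Every probe that the scanner files named by 1 of these 8 symbols was taken, which gave 14 of the 41000 probes, for 8 of the 30484 names, of a whole-genome Agilent array. The cells were 5 established human breast cancer lines, MDA-MB-361, HCC1419, ZR-75-30, HCC1954 and SK-BR-3. Cultures of each line received recombinant human BMP4 or vehicle for 30 min, 1, 3, 6, 12 or 24 h. This gave 30 arrays, 1 for each line and time, with RNA of the BMP4-treated cells in Cy5 and RNA of the vehicle-treated cells of the same line and time in Cy3. Parallel cultures were pooled before extraction, so each channel holds 1 pooled RNA, and the 5 lines serve as the replicates of a time point. The p-values for a time point therefore measure the spread between lines, those for a single line or for differences between lines measure the spread over arrays of different times, and none measures the spread between cultures. The dyes were not exchanged on any array. A test of the log2 ratio (BMP4 over vehicle) against 0 therefore includes whatever dye bias a probe has, and a bias that is constant drops out of differences between times or lines.

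MSX and DLX genes encode DNA-binding homeodomain transcription factors. BMP ligands bind paired receptor kinases, which phosphorylate SMAD1, SMAD5 and SMAD9, and these enter the nucleus together with SMAD4 and act on target genes. In the embryo several MSX and DLX genes are switched on by BMP signals in the limb, the tooth, the branchial arches and the neural crest, and Msx genes also take part in the formation of the mammary gland. The DLX genes lie in the genome as adjacent pairs, DLX1 with DLX2, DLX3 with DLX4 and DLX5 with DLX6, and the members of a pair often share control regions. MSX proteins act mostly as repressors and DLX proteins mostly as activators, at similar DNA sites.

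Probes are numbered within a gene, and positions are those of the files (build hg18). MSX1 probe 1 (A_23_P110430, chr4:4915945-4916004) and probe 2 (A_24_P345837, chr4:4915524-4915583) lie on the plus strand, as do MSX2 probe 1 (A_24_P132006, chr5:174089974-174090033) and probe 2 (A_24_P132008, chr5:174089553-174089612). On chromosome 2, DLX1 probe 1 (A_23_P403466, 172660985 to 172661044) and probe 2 (A_32_P142818, 172662237 to 172662296) lie on the plus strand. DLX2 probe 1 (A_23_P28595, 172672586 to 172672645), probe 2 (A_23_P28598, 172672608 to 172672667) and probe 3 (A_24_P45980, 172672744 to 172672803) lie on the minus strand, with probes 1 and 2 overlapping. On chromosome 17, DLX3 probe 1 (A_23_P308552, 45427130 to 45427189) and probe 2 (A_24_P296587, 45423127 to 45423186) lie on the minus strand and the DLX4 probe (A_23_P164196, 45406865 to 45406924) on the plus strand. On chromosome 7, the DLX5 probe (A_23_P318262) spans 96488259 to 96489437 on the minus strand and the DLX6 probe (A_23_P353541) spans 96475048 to 96477071 on the plus strand. The nearest probes of a pair are 10.3 kb apart for DLX1 and DLX2, 16.2 kb for DLX3 and DLX4 and 11.2 kb for DLX5 and DLX6.

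The promoters of DLX1, DLX2 and MSX2 are shown because these genes had a probe that was higher with BMP4 at 12 and 24 h. RefSeq promoters (build GRCh38.p14) matched 5 of the 8 genes, MSX1, MSX2, DLX1, DLX2 and DLX6. Each line below holds the 250 bases before the annotated start, 5′ to 3′ on the gene's own strand, at chr2:172085257-172085506 (plus) for DLX1, chr2:172102901-172103150 (minus) for DLX2 and chr5:174724332-174724581 (plus) for MSX2. Capitals mark GGCGCC or GGAGCC, GC-rich sequences that BMP-activated SMADs are known to bind, and TAATTA, the core that homeodomains bind, each searched on both strands.
DLX1: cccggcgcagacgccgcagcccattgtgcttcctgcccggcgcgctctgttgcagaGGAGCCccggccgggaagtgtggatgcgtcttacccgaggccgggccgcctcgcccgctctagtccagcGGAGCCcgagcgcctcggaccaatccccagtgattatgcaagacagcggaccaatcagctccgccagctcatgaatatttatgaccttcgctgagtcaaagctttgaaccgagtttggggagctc
DLX2: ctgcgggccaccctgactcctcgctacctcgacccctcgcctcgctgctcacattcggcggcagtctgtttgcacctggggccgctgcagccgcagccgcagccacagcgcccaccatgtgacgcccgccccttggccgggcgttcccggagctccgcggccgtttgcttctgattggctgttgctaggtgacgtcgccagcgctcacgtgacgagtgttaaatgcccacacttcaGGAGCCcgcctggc
MSX2: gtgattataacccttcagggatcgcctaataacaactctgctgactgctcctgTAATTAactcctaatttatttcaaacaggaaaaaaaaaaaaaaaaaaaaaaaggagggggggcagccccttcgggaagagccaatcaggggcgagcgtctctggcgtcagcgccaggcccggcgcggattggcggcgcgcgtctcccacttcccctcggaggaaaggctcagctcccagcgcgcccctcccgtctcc
GGAGCC began 14 bases before the start of DLX2 and 194 and 125 bases before that of DLX1. MSX2 held neither GC-rich sequence in this window and had TAATTA 197 bases before its start. MSX1, a gene with no probe called here, had GGAGCC 11 bases before its start, and DLX6, which was not well above background, had GGCGCC 189 and 164 bases before its start and GGAGCC on the other strand. Of all 35116 promoters, 30.6% held GGAGCC, 16.4% held GGCGCC and 4.35% held TAATTA, while GTCTG, a SMAD box also searched, was in 38% and in the DLX1 and DLX2 windows, so the letters are common and a match is a description only. GC made up 63.6% of the DLX1 window, 68% of that of DLX2 and 55.6% of that of MSX2, beside a median of 58% over all promoters.

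The levels of these genes in vehicle-treated cells differed between the 5 lines. The software called the vehicle signal well above background on 30 of 30 arrays for both MSX2 probes, DLX1 probe 2, DLX2 probes 1 and 2 and DLX4. DLX2 probe 3 passed on 28 arrays, DLX1 probe 1 on 28, DLX3 probe 1 on 27 and DLX3 probe 2 on 25. The DLX5 probe passed on 2 vehicle arrays and 1 BMP4 array, and the DLX6 probe on 0 of 30 in either channel, so DLX6 was not measured above background and DLX5 only on 1 vehicle array each in SK-BR-3 and ZR-75-30. The vehicle level, a log2 intensity after normalization that is compared only within a probe, differed between lines for 12 of the 14 probes (limma F test with Benjamini-Hochberg adjustment, adjusted p under 0.05). Over all 41000 probes 73.1% differed between lines, so this share is near that of the array as a whole. Each mean below is over the 6 vehicle arrays of a line, with the SD over those arrays. In such bulk RNA, fewer cells that express a gene and less RNA per cell cannot be told apart.

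MSX2, a repressor induced by BMPs in many embryonic tissues, was highest in MDA-MB-361. Probe 1 had vehicle levels of 11.26 ± 0.71 in MDA-MB-361, then 9.49 ± 0.26 in SK-BR-3, 9.43 ± 0.43 in ZR-75-30, 7.82 ± 0.22 in HCC1419 and 7.74 ± 0.31 in HCC1954 (SD, n = 6). The step from MDA-MB-361 to SK-BR-3 was 3.41-fold and that from ZR-75-30 to HCC1419 was 3.05-fold, both called. SK-BR-3 did not differ detectably from ZR-75-30 (adjusted p = 0.88, limma), nor HCC1419 from HCC1954 (adjusted p = 0.80, limma). Probe 2 gave the same order with the same pair of called steps, of 3.43-fold and 1.86-fold.

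DLX1, a factor of forebrain interneurons, was also highest in MDA-MB-361 and lowest in HCC1954. DLX1 probe 2 stood at 11.49 ± 0.36 in MDA-MB-361, 10.03 ± 0.25 in HCC1419, 9.83 ± 0.32 in ZR-75-30, 8.89 ± 0.18 in SK-BR-3 and 7.79 ± 0.11 in HCC1954 (SD, n = 6). Of the 4 neighbouring steps, only that from HCC1419 to ZR-75-30 was not called (adjusted p = 0.17, limma). DLX2, its neighbour on chromosome 2, was also lowest in HCC1954 by its mean. DLX2 probe 1 stood at 8.77 ± 0.45 in MDA-MB-361, then 8.52 ± 0.40 in SK-BR-3, 8.09 ± 0.22 in HCC1419, 7.88 ± 0.46 in ZR-75-30 and 7.29 ± 0.26 in HCC1954 (SD, n = 6). MDA-MB-361 and SK-BR-3 did not differ detectably, nor did HCC1419 and ZR-75-30 (adjusted p = 0.12 and 0.24, limma).

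DLX3, which acts in epidermis and placenta, gave different answers in HCC1954 by its probes, with probe 1 well above background there on 4 of 6 vehicle arrays and probe 2 on 1 of 6. Its levels by probe 2 were 9.56 ± 0.25 in SK-BR-3, 8.88 ± 0.25 in HCC1419, 8.81 ± 0.18 in MDA-MB-361, 7.81 ± 0.17 in ZR-75-30 and 6.60 ± 0.06 in HCC1954 (SD, n = 6). All neighbouring steps but that from HCC1419 to MDA-MB-361 (adjusted p = 0.62, limma) were called. DLX3 probe 1 lay between 6.89 and 7.46 in every line, with no called step between neighbours. DLX4, the partner of DLX3 on chromosome 17, was highest in MDA-MB-361 at 10.03 ± 0.19 and lowest in HCC1954 at 7.25 ± 0.29 (SD, n = 6). HCC1419 at 8.64, SK-BR-3 at 8.53 and ZR-75-30 at 8.11 lay between them, and no neighbouring step among these was called.

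MSX1, the paralogue of MSX2, gave different answers by its probes. Probe 1 was well above background on all 6 vehicle arrays in MDA-MB-361 and in ZR-75-30 and on none in the other lines. Its level in MDA-MB-361 was at least 1.91-fold that in HCC1954, at least 1.73-fold that in SK-BR-3 and at least 1.67-fold that in HCC1419, where the lower level was replaced by the dimmest signal called above background on those arrays. Probe 2 was well above background on all 30 vehicle arrays, with its highest mean in SK-BR-3, at 8.70 ± 1.36, and its lowest in HCC1419, at 7.23 ± 0.17 (SD, n = 6). The SD of 1.36 in SK-BR-3 was wider than the step between any neighbouring lines, and none of those steps was called.

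**Figure D1:**
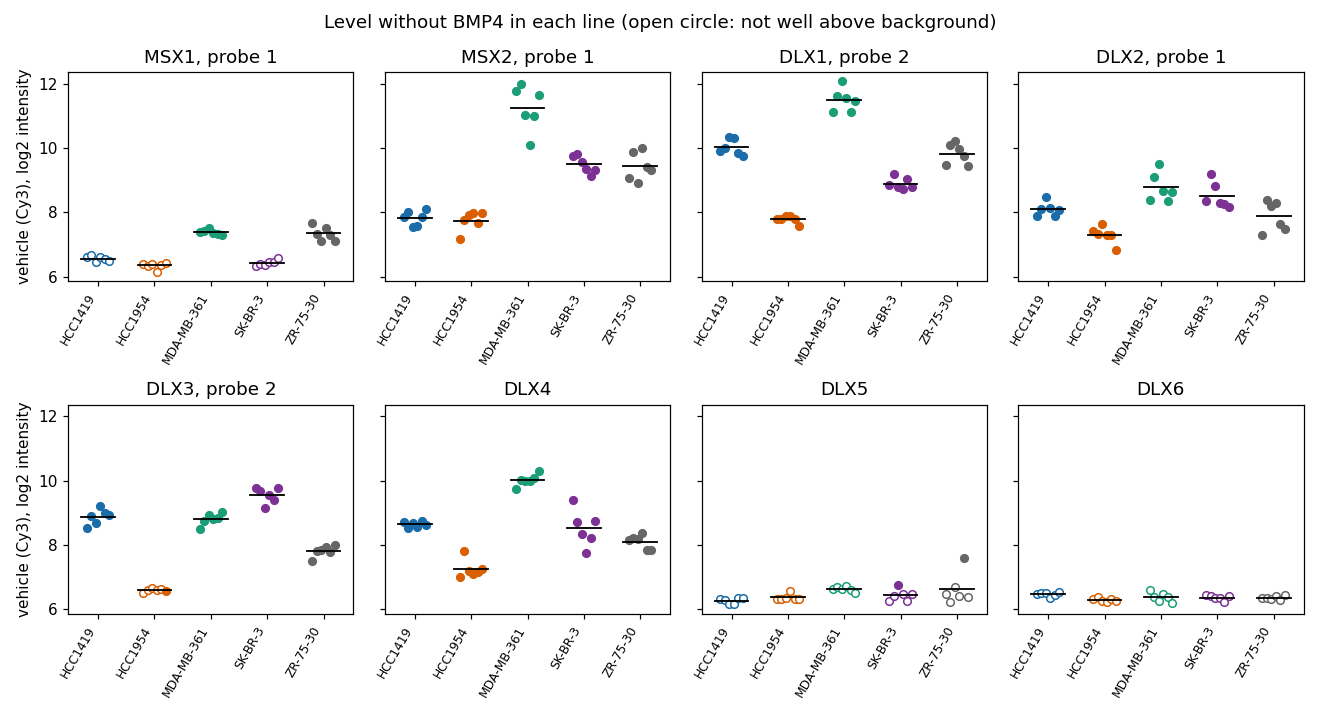
Vehicle (Cy3) log2 intensity of 1 probe for each of the 8 genes, on the y axis, in the 5 lines on the x axis. Each circle is 1 array (30 min to 24 h from left to right within a line), open circles were not well above background, and black bars are means of 6 arrays. MSX2, DLX1 and DLX4 were highest in MDA-MB-361, HCC1954 had the lowest mean in the DLX1 to DLX4 panels, and DLX5 passed the background call on 2 arrays and DLX6 on 0.

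By the background call, the lines carried the luminal markers that were looked up, with 1 exception. Each marker gene was counted by its probe with the most arrays above background, and probes of a gene could disagree. By that count all 9 luminal epithelial genes were well above background on all 6 vehicle arrays of each line, apart from CDH1, the epithelial cadherin, which was on 0 of 6 in SK-BR-3. A dimmer KRT18 probe was on only 1 to 4 of 6 arrays in each line. Luminal levels also differed, with KRT19 at 11.21 in HCC1954 and between 17.54 and 17.63 elsewhere. GATA3 ran from 7.97 in SK-BR-3 to 13.15 in ZR-75-30. HCC1954, the line with the lowest mean levels of DLX1 to DLX4, also stood apart in basal epithelial genes, with all 3 (KRT5, KRT14 and TP73L, now TP63) above background on every vehicle array. KRT5 was at 13.29 there and between 6.33 and 6.98 elsewhere. KRT14 by one probe was at 14.96 there, at 11.95 in HCC1419 and between 6.91 and 8.31 in the remaining lines. In the other lines 1 or 2 of the 3 basal genes were above background on every array. Of 5 mesenchymal genes, 3 were above background on every vehicle array in HCC1954 and in ZR-75-30 and 1 or 2 in the other lines. VIM was at 14.20 in HCC1954 by one probe and between 6.64 and 7.71 elsewhere, whereas COL1A1 was highest in MDA-MB-361 (9.23, against 7.10 in HCC1954). COL6A3 was highest in SK-BR-3 by one probe (9.38, against 8.56) and on 0 arrays in every line by another. COL3A1 was on at most 4 of 6 vehicle arrays of a line, and PDGFRB was on 0 arrays in every line. Of the endothelial genes, PECAM1 was at 9.20 in HCC1954 and above background on no vehicle array of the other lines, and CDH5 was above background on 5 of 6 vehicle arrays in both SK-BR-3 (7.71) and HCC1954 (7.18). The part of these marker differences in the DLX levels was not tested. The background call alone does not identify a cell type. The leukocyte genes CD3E and CD68 and one probe of the adipocyte gene ADIPOQ (11.68 to 13.17) were above background on all 6 vehicle arrays of every line. PTPRC and another ADIPOQ probe were on 0.

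Probes of DLX1, DLX2, DLX3 and MSX2 were called higher with BMP4, and no member probe was called lower at any time. The number of member probes called against 0 (limma, adjusted p under 0.05) was, from 30 min to 24 h, 0, 1, 4, 3, 4 and 5 of 14. Higher calls over all 41000 probes made up 0.0585%, 0.612%, 0.29%, 0.139%, 0.351% and 1.06% at the same times. At 24 h the 5 probes belonged to 4 of the 8 genes. The median log2 ratio of the 14 probes was 0.05 at 30 min and 0.38 at 24 h, beside 0.00 for all probes at 24 h. With the cell line as a block, which takes mean differences between lines out of the spread, the counts from 1 to 24 h were 3, 6, 6, 7 and 7. Higher calls over all probes also rose with that block, from 251, 119, 57, 144 and 434 to 537, 300, 168, 509 and 1089. With a line left out and no block, no member count was larger than with all 5 lines. At 24 h they fell to 2 without HCC1954 and 3 without MDA-MB-361, at 3 h to 2 without HCC1419, MDA-MB-361 or ZR-75-30, at 12 h to 0 without HCC1419, SK-BR-3 or ZR-75-30 and 2 without MDA-MB-361, at 6 h to 0 without MDA-MB-361 or SK-BR-3 and to 1 without each other line, and at 1 h to 0 without each line in turn. Higher calls over all probes mostly fell too, at 24 h from 434 to 217 without HCC1954 and 279 without MDA-MB-361. At 12 h they went from 144 to 34, 70 and 49 without HCC1419, SK-BR-3 or ZR-75-30, but to 191 without MDA-MB-361. At 6 h they went from 57 to 32 without MDA-MB-361 and 33 without SK-BR-3.

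The late rise, defined as the mean of 3, 6, 12 and 24 h minus 30 min with the line as a block, contains no constant dye bias. It was called for 2 of the 14 probes, DLX3 probe 2 and DLX1 probe 2, beside 0.0927% of all probes. A test for any change over the 6 times called 0 of the 14 member probes, beside 0.0902% of all probes (limma F test), while 7 member probes had an unadjusted p under 0.05. The median late rise was 0.28 over the 14 probes and 0.01 over all probes. At least 2-fold higher ratios on single arrays were seen for DLX2 probes 1, 2 and 3 on 7, 7 and 4 of the 30 arrays, and for MSX2 probe 1 and DLX3 probe 2 on 1 array each, while MSX1 probe 2 was at least 2-fold lower on 1 array. Of all probes, 3.96% reached 2-fold higher on at least 1 array and 0.437% on 4 or more.

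**Figure D2:**
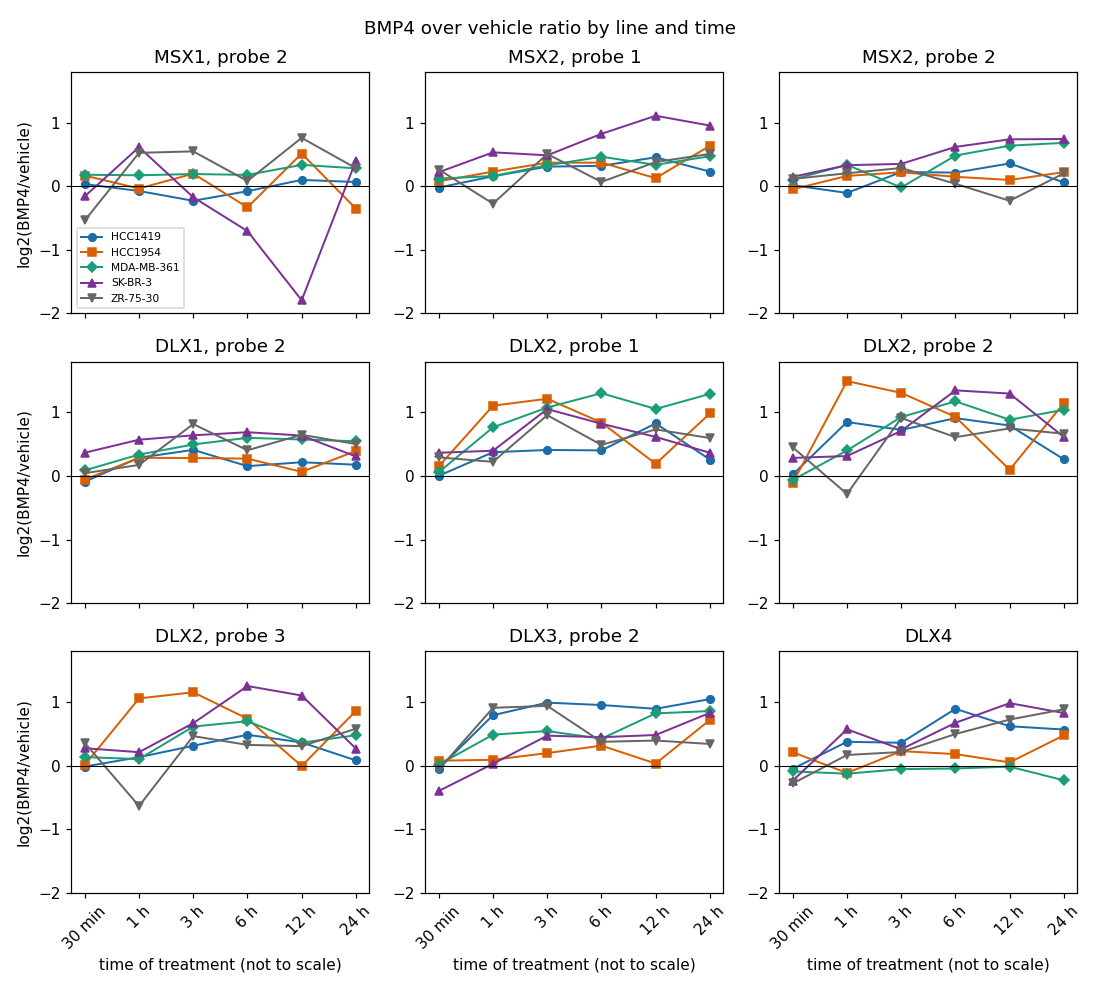
Log2 ratio of BMP4 over vehicle, on the y axis, at the 6 times on the x axis, for 9 member probes, with 1 line and symbol for each cell line. DLX2 ratios lay near 1 in several lines from 3 h, DLX3 probe 2 lay between -0.40 and 0.08 at 30 min and between 0.34 and 1.05 at 24 h, DLX4 stayed below 0 in MDA-MB-361, and MSX1 probe 2 moved in both directions.

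DLX2 had the largest positive ratios of the group. At 3 h the log2 ratio by probe 1 was 1.22 in HCC1954, 1.05 in SK-BR-3, 1.08 in MDA-MB-361, 0.96 in ZR-75-30 and 0.41 in HCC1419. All 5 lines were higher with BMP4, and HCC1419 was the lowest of them. The mean was 0.94 ± 0.14 (SE), 1.92-fold, with an adjusted p of 0.00085 (limma), and this call held with each line left out in turn. Probe 2, which overlaps probe 1, gave 0.92 ± 0.17 (SE, limma, adjusted p = 0.0079), and its call was lost without HCC1419 (adjusted p = 0.079) or MDA-MB-361 (adjusted p = 0.078). Probe 3 gave 0.64 ± 0.16, which was not called (SE, limma, adjusted p = 0.085).

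The DLX2 ratio was higher at 1 h than at 30 min in some lines. At 30 min probe 1 read 0.15 in HCC1954, 0.06 in MDA-MB-361, 0.004 in HCC1419, 0.29 in ZR-75-30 and 0.37 in SK-BR-3. At 1 h it read 1.11, 0.77, 0.37, 0.22 and 0.40 in the same order. By this probe ZR-75-30 was thus lower at 1 h than at 30 min, and SK-BR-3 was near its 30 min ratio. The mean at 1 h was 0.57 ± 0.14 (SE, limma, adjusted p = 0.045), a call that was lost with each line left out in turn. HCC1954 was the highest line by all 3 probes at 1 h, with 1.49 by probe 2 and 1.06 by probe 3. ZR-75-30 was the lowest, with -0.28 by probe 2 and -0.63 by probe 3, so the probes disagreed in sign there. At 24 h probe 1 read 1.29 in MDA-MB-361, 0.98 in HCC1954, 0.60 in ZR-75-30, 0.37 in SK-BR-3, as at 30 min, and 0.26 in HCC1419. Its mean was 0.70 ± 0.14 (SE), 1.62-fold (limma, adjusted p = 0.0085), and the call was lost without HCC1954 (adjusted p = 0.053) or MDA-MB-361 (adjusted p = 0.063). Probe 2 gave 0.75 ± 0.17 at 24 h (SE, limma, adjusted p = 0.020), a call lost without MDA-MB-361 (adjusted p = 0.13) or SK-BR-3 (adjusted p = 0.054). The late rise of probe 1 was 0.60 ± 0.13 and that of probe 2 was 0.74 ± 0.19, and neither was called (SE, limma, adjusted p = 0.14 and 0.34).

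In HCC1954 the DLX2 ratio was nearly gone at 12 h and present again at 24 h. From 3 to 24 h probe 1 read 1.22, 0.84, 0.19 and 0.98, probe 2 read 1.31, 0.93, 0.10 and 1.15, and probe 3 read 1.16, 0.74, -0.00 and 0.86. The dip was shared by the 3 probes and was not particular to DLX2. Of these 4 arrays, the 12 h array was also the lowest for the other member probes called at 24 h. There DLX1 probe 2 read 0.07, DLX3 probe 2 read 0.04 and MSX2 probe 1 read 0.13. ID1, an inhibitor of bHLH factors and a standard BMP target, read 1.76, 1.90, 1.49 and 1.40 on the same 4 arrays. ID2, a target of the same family, read 1.74, 1.54, 1.14 and 1.63 by one probe and 2.25, 2.10, 1.18 and 2.23 by another, so ID2 was also lowest at 12 h but stayed above 1. The 12 h array of this line was scanned on the day of its 30 min and 1 h arrays and the 3, 6 and 24 h arrays on another day, and the part of that in the dip was not tested.

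The level of DLX2 in vehicle-treated cells also moved over time. By probe 1 the vehicle level in MDA-MB-361 was 8.40, 9.10, 9.51, 8.66, 8.34 and 8.64 from 30 min to 24 h. The BMP4 level on the same arrays was 8.46, 9.86, 10.59, 9.96, 9.39 and 9.93. Both channels thus peaked at 3 h in this line, and the BMP4 channel was the higher one at every time. At 3 h the vehicle level was above that at 30 min in 5 of 5 lines, by 0.22 to 1.12 with a median of 0.60, and the BMP4 level was above it by 1.00 to 2.13. By probe 2 the vehicle change from 30 min to 3 h was 0.49 to 1.38 and by probe 3 it was 0.34 to 1.56, in 5 of 5 lines each. For comparison, the mean vehicle change of all probes over the same interval had a median size of 0.09.

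**Figure D3:**
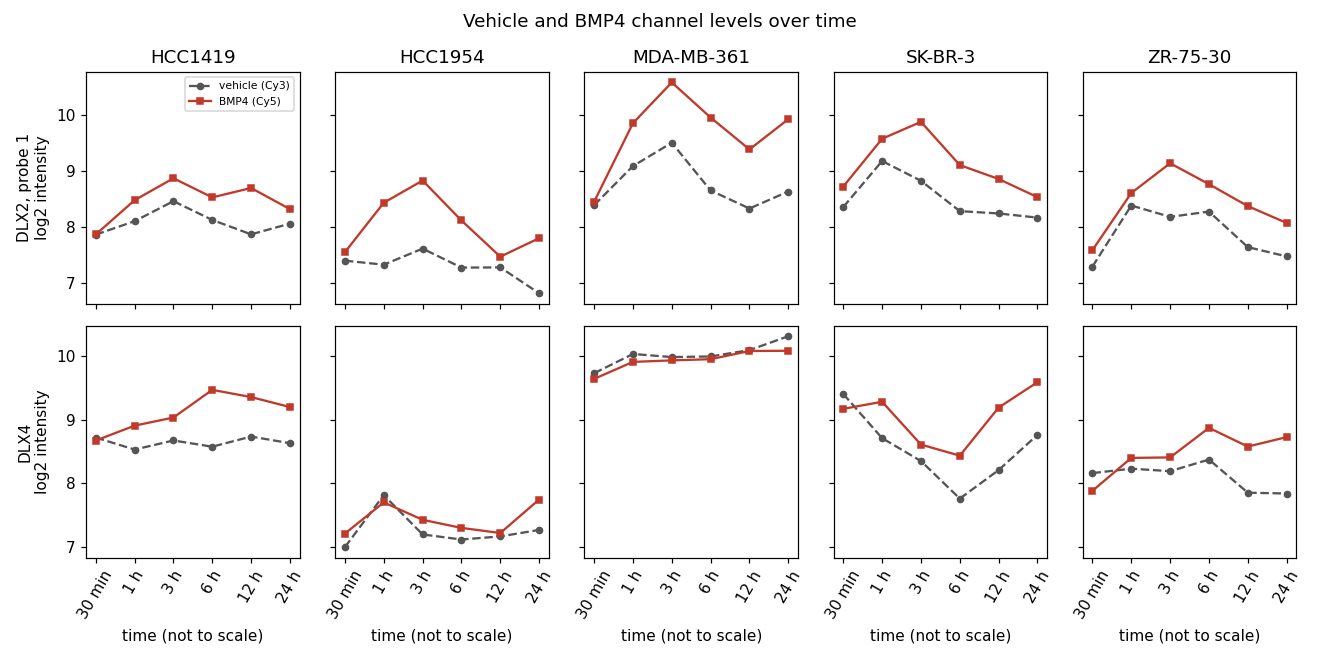
Log2 intensity of the vehicle (Cy3, dashed grey) and BMP4 (Cy5, solid red) channels, on the y axis, over the 6 times on the x axis, for DLX2 probe 1 and DLX4 in each line. For DLX2 both channels were higher at 3 h than at 30 min in all 5 lines. For DLX4 SK-BR-3 had a vehicle level of 7.76 at 6 h, down from 9.40 at the first time, and the channels ran together in MDA-MB-361.

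DLX1, the neighbour of DLX2, had smaller mean ratios by probe 2, and they differed between lines (limma F test, adjusted p = 0.00985). At 3 h they were 0.82 in ZR-75-30, 0.64 in SK-BR-3, 0.50 in MDA-MB-361, 0.41 in HCC1419 and 0.28 in HCC1954, with a mean of 0.53 ± 0.09 (SE), 1.44-fold (limma, adjusted p = 0.0023). Probe 2 was above 0 in all 5 lines at each of the 4 late times and was called at each of them. The call at 3 h was lost without ZR-75-30 (adjusted p = 0.056), and that at 24 h without HCC1954, MDA-MB-361 or ZR-75-30 (adjusted p = 0.060, 0.12 and 0.11). Its late rise was 0.37 ± 0.07 (SE), 1.29-fold (limma, adjusted p = 0.027). The late rise lost its call without HCC1419, HCC1954, MDA-MB-361 or ZR-75-30 (adjusted p = 0.30, 0.088, 0.45 and 0.17) and kept it without SK-BR-3. DLX1 probe 1, at a lower signal, had a late rise of 0.19 ± 0.06 that was not called (SE, limma, adjusted p = 0.62). By that probe the late mean was 0.34 in MDA-MB-361, while the other lines lay between -0.03 and 0.09, so the probes of DLX1 disagreed on which lines responded.

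DLX3 had the largest called late rise. By probe 2 the log2 ratio at 30 min was -0.04 in HCC1419, -0.40 in SK-BR-3, 0.02 in MDA-MB-361, 0.08 in HCC1954 and -0.06 in ZR-75-30. At 24 h it was 1.05, 0.83, 0.86, 0.72 and 0.34 in the same order. Every line was higher at 24 h than at 30 min, with no overlap between these times. The late rise was 0.69 ± 0.12 (SE), 1.61-fold (limma, adjusted p = 0.0094), and the ratio at 24 h was 0.76 ± 0.13 (SE), 1.69-fold (limma, adjusted p = 0.0017). The call at 24 h held with each line left out in turn, whereas the late rise lost its call without HCC1419, MDA-MB-361 or SK-BR-3 (adjusted p = 0.40, 0.16 and 0.14). At 3 h the mean was 0.63 (limma, adjusted p = 0.025), a call kept only without HCC1954. In HCC1954 the vehicle signal of probe 2 was near background throughout, and the BMP4 channel was well above background on 3 of 6 arrays. DLX3 probe 1 showed a late rise of 0.01 ± 0.07 (SE, limma, adjusted p = 1.00), so the probes of DLX3 disagreed.

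DLX4 was higher with BMP4 in some lines and not in MDA-MB-361, where its vehicle level was highest. From 3 to 24 h the log2 ratio was 0.36, 0.90, 0.62 and 0.57 in HCC1419, 0.22, 0.50, 0.73 and 0.89 in ZR-75-30 and 0.26, 0.68, 0.99 and 0.83 in SK-BR-3. In HCC1954 it was 0.23, 0.18, 0.05 and 0.48, and in MDA-MB-361 -0.05, -0.04, -0.01 and -0.23. The MDA-MB-361 values lay below all those of the other lines at each late time. The ratio differed between lines over the 6 times (limma F test, adjusted p = 0.013), but the difference of the late rise between lines was not called (adjusted p = 0.79). The difference between lines lost its call when MDA-MB-361 was left out (adjusted p = 0.34), and the 24 h ratio rose from 0.51 (limma, adjusted p = 0.071) to 0.69 (adjusted p = 0.010). Without that line the calls between lines over all probes also fell, from 9092 to 96. The late rise of DLX4 over all lines was 0.49 ± 0.12 and was not called (SE, limma, adjusted p = 0.20).

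In SK-BR-3 the vehicle level of DLX4 was lower at 6 h than at 30 min and higher again at 24 h. The vehicle level there was 9.40, 8.71, 8.35, 7.76, 8.21 and 8.76 from 30 min to 24 h, and the BMP4 level was 9.17, 9.28, 8.61, 8.43, 9.19 and 9.59. In HCC1419 the vehicle level stayed between 8.53 and 8.73 while the BMP4 level went from 8.67 at 30 min to 9.47 at 6 h.

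MSX2 was raised at the later times, most in SK-BR-3. By probe 1 the log2 ratio in SK-BR-3 was 0.22, 0.53, 0.49, 0.82, 1.11 and 0.96 from 30 min to 24 h. At 24 h the other lines read 0.64 in HCC1954, 0.51 in ZR-75-30, 0.47 in MDA-MB-361 and 0.23 in HCC1419, and the mean over the 5 lines was 0.56 ± 0.11 (SE), 1.48-fold (limma, adjusted p = 0.0058). All lines were above 0 at every late time. The call at 24 h was lost without HCC1954 (adjusted p = 0.058) and held without each other line, SK-BR-3 included (0.46, limma, adjusted p = 0.0048). Probe 2 ran in the same direction with 0.38 ± 0.11 at 24 h, which was not called (SE, limma, adjusted p = 0.065). The difference between lines was called for both MSX2 probes (limma F test, adjusted p = 0.014 and 0.025), and it was not called for probe 1 without SK-BR-3 (adjusted p = 0.87) or MDA-MB-361 (adjusted p = 0.10). Over all probes such calls went from 9092 to 10129 without SK-BR-3 and to 96 without MDA-MB-361. The late rise of probe 1 was 0.33 ± 0.09 and was not called (SE, limma, adjusted p = 0.41).

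MSX1 showed no called ratio at any time. Probe 1 stayed between -0.23 and 0.07 on all 30 arrays. Probe 2 ran from -1.79 in SK-BR-3 at 12 h to 0.76 in ZR-75-30 at 12 h, with a late rise of 0.08 ± 0.23 (SE, limma, adjusted p = 0.995). Over the 30 arrays the ratios of the MSX1 probes correlated with r = 0.01, against 0.68 for the MSX2 probes, 0.39 for the DLX1 probes, 0.18 for the DLX3 probes and 0.67 to 0.89 for the DLX2 probes. The level behind MSX1 probe 2 also moved in vehicle-treated cells, from 7.07 at 1 h to 10.62 at 12 h in SK-BR-3. DLX5 and DLX6, bone and craniofacial factors, had ratios between -0.32 and 0.28 at signals near background.

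Of the 14 probes, 6 had a ratio that differed between lines over all times (limma F test), namely both MSX2 probes, both DLX1 probes, DLX3 probe 2 and DLX4, beside 22.2% of all probes. The count fell to 4 without HCC1419 or SK-BR-3 and to 0 without MDA-MB-361. Over all probes 9092 were called with every line, 5384 without HCC1419, 10129 without SK-BR-3 and 96 without MDA-MB-361. The fall without MDA-MB-361 was thus one of the whole array. The call of DLX1 probe 2 was also lost without HCC1419, that of DLX3 probe 2 without HCC1419 or HCC1954 and that of MSX2 probe 2 without HCC1954 or SK-BR-3. The late rise itself differed between lines for 0 of the 14 probes (limma, beside 0.0588% of all probes), with 1 member probe at an unadjusted p under 0.05. The DLX2 probes were not called as different between lines (adjusted p = 0.076, 0.77 and 0.21).

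Within single lines, the mean of the 4 late arrays was tested against 0. It was called higher for 9 member probes in MDA-MB-361, then 8 in SK-BR-3, 7 in ZR-75-30, 6 in HCC1419 and 4 in HCC1954, and lower for none. Higher calls over all probes made up 7.44%, 1.71%, 10.3%, 3.82% and 1.11% in the same order, and these tests contain dye bias. The counts fell in HCC1419 to 1 without 6 h, 2 without 3 h and 3 without 12 h, in HCC1954 to 0 without 3, 6 or 24 h, in MDA-MB-361 to 5 without 6 h and in SK-BR-3 to 2 without 6 h. Higher calls over all probes fell as well. In HCC1419 they went from 1565 to 321, 920 and 1163, and in HCC1954 from 454 to 65, 18 and 19, in the same orders. Without 6 h they went from 3049 to 618 in MDA-MB-361 and from 701 to 48 in SK-BR-3. DLX2 probes 1 and 2 and MSX2 probe 1 were called in all 5 lines. DLX3 probe 2 and DLX1 probe 2 were called in every line but HCC1954, and DLX4 in HCC1419, SK-BR-3 and ZR-75-30. In MDA-MB-361 the 9 calls included DLX6, at 0.17 ± 0.05 (SE, limma, adjusted p = 0.032), on arrays where that probe was not well above background. Against 30 min instead of 0, the late rise within a line was called for 0 member probes in each of the 5 lines (limma), with 6, 4, 4, 3 and 3 probes at an unadjusted p under 0.05 in that order of lines. Higher calls over all probes made up 0.0392%, 0.227%, 0%, 0.0195% and 0.0244% in that order.

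**Figure D4:**
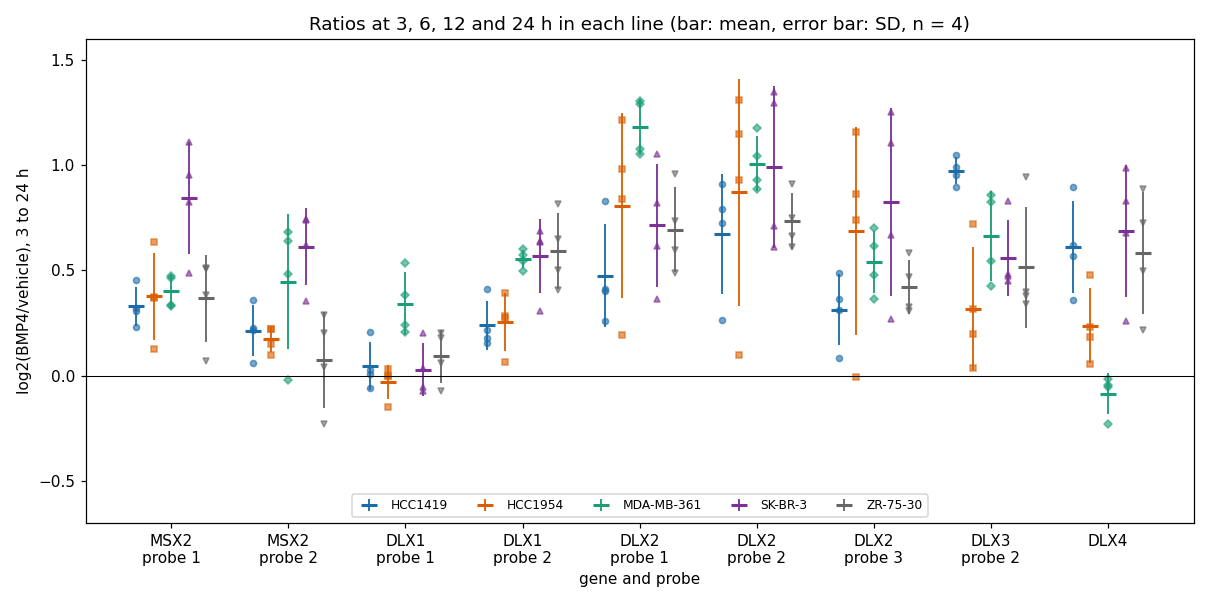
Log2 ratio of BMP4 over vehicle at 3, 6, 12 and 24 h, on the y axis, for 9 member probes on the x axis. Small symbols are single arrays, wide bars the mean of the 4 arrays of a line and error bars the SD. DLX2 probe 1 was highest in MDA-MB-361, MSX2 probe 1 in SK-BR-3 and DLX3 probe 2 in HCC1419, and DLX4 lay below 0 in MDA-MB-361.

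Arrays were scanned on different days, and where a line's arrays shared a day the late rise was recomputed within it. In HCC1419, with all arrays on 1 day, DLX3 probe 2 changed by 1.02, DLX4 by 0.66 and DLX1 probe 2 by 0.33 on the log2 scale. Over the 2 late arrays of HCC1419 on the slide of its 30 min array they changed by 1.02, 0.68 and 0.37. In MDA-MB-361, also on 1 day, they changed by 0.65, 0.00 and 0.47. No late array there shared the slide of the 30 min array, so slide and late rise cannot be told apart in that line. In ZR-75-30, over the 2 late arrays scanned on the same day and slide as the 30 min array, they changed by 0.73, 0.75 and 0.69. In HCC1954 the 12 h array alone shared a day with 30 min, on another slide, with changes of -0.05, -0.16 and 0.12. In SK-BR-3 no late array shared a day with 30 min, so there scan day and late rise cannot be told apart.

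Genes of the BMP pathway and of related homeobox families were counted beside these members, where 0.0927% of all probes were called higher in the late rise and 1.06% at 24 h. Of 24 BMP-SMAD target and feedback genes on the array, 6 had a called late rise, all higher (ID1, ID2, ID3, ID4, SMAD6 and GATA2), with a median over their probes of 0.15. The largest were ID2, at 1.07 and 1.33 by its probes, and ID1, at 1.02. At 24 h 9 of the 24 were called higher and none lower, with HEY1, ATOH8 and JUNB added. GATA2 and JUNB were called by one probe each. The other GATA2 probe had an adjusted p of 0.086 in the late rise and 0.11 at 24 h, and the other JUNB probe 0.34 at 24 h (limma). Of 24 other homeobox genes of the NKL class, to which MSX and DLX belong, none was called in the late rise or at 24 h, and the median late rise was -0.02. Only 12 of the 28 NKL probes were well above background in either channel on more than 15 arrays. The largest values in that list, 0.67 for LBX1, 0.44 for NKX2-8 and 0.41 for EN2, had SEs of 0.32 to 0.33. Of 39 HOX cluster genes none was called in the late rise, and HOXC13 (0.63, limma, adjusted p = 0.055) was the 1 gene called at 24 h, at 0.55, with HOXA3 and HOXB9 next at 0.34 each in the late rise. Of 19 partners of MSX and DLX in ectoderm and skeleton none was called in the late rise, led by MAGED1 at -0.27, GRHL3 at 0.24 and TP73L at 0.19, and HAND1 was called at 24 h at 0.18. Second probes of genes named here by 1 probe had late rises of -0.02 for LBX1, 0.01 for HOXA3, -0.09 for MAGED1 and -0.004 for TP73L. Nothing is read from 1 called gene in a list, given the share of all probes called at 24 h. By the same count, 18 of 52 HOX probes and 18 of 29 partner probes were above background, beside 27 of 35 target and feedback probes. The lists thus differ in how many genes could show a change.

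The probes whose ratios ran most like those of the called members were found by Pearson's r over the 30 arrays, which share lines and times. For DLX2 probe 1 they were DLX2 probe 2 (0.80), ID2 (0.70), SMAD1 (0.69), THC2537219 (0.67) and DLX2 probe 3 (0.67). For DLX2 probe 2 they were DLX2 probe 3 (0.89), HOXC13 (0.81), DLX2 probe 1 (0.80), ALDH1A3 (0.74) and ID2 (0.71). For DLX1 probe 2 they were NLRP1 (0.66), DLX2 probe 1 (0.65), RHOU (0.65), HGS (0.61) and AK055915 (0.60). A probe of the neighbouring gene DLX2 was thus among the 5 most like DLX1 probe 2, while the 5 most like DLX1 probe 1, which was not called, held none (RBM38, FRAT1, TBX3, TXNRD3 and THC2701797). For DLX3 probe 2 they were GATA2 (0.75), SPAG4 (0.74), GSTM3 (0.74), LIN7B (0.71) and GPRC5C (0.70), and its neighbour DLX4 correlated with it at 0.39. For MSX2 probe 1 they were RABGAP1L (0.82), MSX2P (0.79), HBP1 (0.78), NUAK1 (0.76) and DAAM1 (0.76), where MSX2P is a pseudogene of MSX2 whose probe may share signal with it.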

How the data were processed

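Each array compared BMP4 (Cy5) with vehicle (Cy3) for 1 line and time, and samples were grouped by the labelled time with the line as replicate. Per the file headers, Agilent Feature Extraction 9.5.1.1 made the deposited intensity values, the mean spot signal and median local background, with probe positions on hg18. The authors also deposited log2 ratios, whose lowest correlation with the software's processed ratio was 0.999859. They were used as an alternative.

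In R 4.3.3 with limma 3.58.1, the 45015 spots were background-corrected (normexp, offset 50), the 1639 control spots got weight 0 in loess, outlier spots were left out and spots were averaged to 41000 probes. Vehicle levels came from loess followed by Aquantile scaling. Models were fitted by lmFit and eBayes, two-sided, and p-values were adjusted by Benjamini-Hochberg across the 41000 probes, with calls at an adjusted p under 0.05. Fits were tested on simulated data. On each array 58.9% to 70.6% of probes were well above background in vehicle and 56.3% to 70.8% in BMP4, no member spot was saturated, and the number of arrays limits the precision.

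Replicate numbers pair arrays because each is 1 cell line: deviations of arrays from their time means correlated at 0.23 on average within a line (over 0.1 for 44 of 75 pairs) and -0.09 between lines. All probes of the members were named, with the 5 most alike probes of each called member and the 3 probes of largest absolute late rise of each list. Members and lists were chosen with earlier results of these data known. Alternatives changed the background correction, normalization, source, filter, array weights, scan day, replicate block and the lines or times included.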

Additional observations from a re-analysis of the deposited data

Results flagged for a closer look

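With 5 lines at each time, 84 sets of ratios were examined for a line standing apart, and 5 had 1, where chance marks about 1 in 20 sets. MSX1 probe 2 read -1.79 in SK-BR-3 at 12 h, while the other lines lay between 0.10 and 0.76. This probe also differed from all other members in its likeness to the rest of the array, with 107 of 40247 other probes correlating with it above 0.9 over the 30 arrays and 0 for each of the other 13 member probes. DLX1 probe 1 read 0.38 in MDA-MB-361 at 12 h, against -0.07 to 0.03 elsewhere. DLX3 probe 2 read -0.40 in SK-BR-3 at 30 min, against -0.06 to 0.08, and 0.96 in HCC1419 at 6 h, against 0.32 to 0.45. DLX5 read 0.11 in HCC1419 at 3 h, against -0.11 to -0.08, at a signal not well above background.

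The BMP4 over vehicle ratio differed between the 5 lines for 6 probes in limma's F test. The adjusted p was 0.0135 for MSX2 probe 1, 0.0251 for MSX2 probe 2, 0.00993 for DLX1 probe 1, 0.00985 for DLX1 probe 2, 0.0328 for DLX3 probe 2 and 0.0133 for DLX4. A constant dye bias cancels in these differences, but lines also differ in scan day. HCC1419, MDA-MB-361 and SK-BR-3 shared no scan day with another line, so scan day and line cannot be told apart there. With scan day as a random block the count was again 6, but that block cannot separate the day from the line either.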

How the results depend on the processing

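Across the alternatives no single-probe result that was called in either fit changed sign. On the threshold, 3059 kept their side, 75 gained a call and 186 lost one. Sign changes of uncalled results were not counted, and F tests have no sign. The uncalled 24 h ratio of DLX1 probe 1, for example, ran from -0.01 to 0.08. DLX2 probe 1 at 3 h and DLX3 probe 2 at 24 h were called under every alternative run for them. Counts of member probes called changed as follows. When loess was replaced by 1 factor per array they were, from 1 to 24 h, 0, 1, 0, 0 and 1, with 0 in the late rise, 0 between lines, and for the late mean 1 in HCC1419 and HCC1954 and 0 in ZR-75-30 and SK-BR-3. Over all probes that setting left 25, 8, 5, 6 and 109 higher calls from 1 to 24 h, beside 251, 119, 57, 144 and 434 with loess. It left 10 in the late rise, beside 38, and 5 calls between lines, beside 9092. With the software's processed signals the member counts were 5 at 6 h, 7 at 12 h, 8 at 24 h, 3 between lines, and for the late rise 1 in HCC1954 and 2 in MDA-MB-361. Higher calls over all probes were then 106, 292 and 540 at 6, 12 and 24 h, beside 57, 144 and 434. For the late rise they were 103 in HCC1954 and 45 in MDA-MB-361, beside 10 and 16. The series matrix gave 2 between lines and 2 for the late rise in MDA-MB-361, where higher calls over all probes were 44. Array weights gave 0 at 1 h, 0 at 12 h, 1 for change over time, 8 for the late mean in HCC1954 and 2 for the late rise in SK-BR-3. Over all probes that setting gave 116, 110, 66, 4317 and 324 calls in the same order, beside 251, 144, 37, 454 and 93. These are higher calls, except for change over time, which has no direction. Scan day as a random block gave 2 at 1 h, with 253 higher calls over all probes, beside 251. The cell line as a replicate block gave 3 at 1 h, 6 at 6 h and 7 at 12 h, and without the replicate block the late rise gave 0. Over all probes the late rise without that block had 3 calls. Calls between lines over all probes were 6873 with processed signals and 6256 with the series matrix. The cause of these changes was not tested.

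With each line left out in turn, counts were 0 at 1 h and ranged from 2 to 4 at 3 h, 0 to 1 at 6 h, 0 to 4 at 12 h and, for 24 h, 2 to 5, with 0 to 1 in the late rise and 0 to 6 between lines. Over all probes, higher calls then ranged from 203 to 337 at 24 h and from 6 to 32 in the late rise. Calls between lines ranged from 96 to 10129. With each late time left out, the late mean gave 1 to 6 in HCC1419, 0 to 5 in HCC1954, 5 to 9 in MDA-MB-361 and 2 to 9 in SK-BR-3, and the late rise 0 to 1 in SK-BR-3. The vehicle levels differed between lines for 11 to 14 probes under all their alternatives. DLX5, DLX6 and, in HCC1954, DLX3 probe 2 were limited by signals near background.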
